A study of Mus musculus with 7 samples.

Results

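Shh, Ptch1, Smo, Gli1, Gli2, Gli3, Hhip, Boc and Cdon, the core genes of Sonic hedgehog signaling, were followed in neurospheres of the adult mouse hippocampus. They are 9 of the 24346 genes in the deposited expression table, taken by gene symbol and chosen by their place in the pathway with the control and Med23 CKO values of the same table in view. Their differences between the groups are therefore given as descriptions, without a test. All 9 genes were found in the table, and 8 of them had a mean of at least 0.5 FPKM over the 7 libraries, the level at which genes entered the fit. Gli1 did not reach it, Shh reached it only through the controls, and Gli2 only through the Med23 CKO mice.

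Neurospheres were grown from hippocampal cells of single mice, so each library is a separate animal, and their RNA was sequenced. Med23 encodes a subunit of Mediator, the complex that links transcription factors to RNA polymerase II. Med23 CKO mice carried Nestin-CreER and Med23 flox/flox, and 3 of them were measured (KO_117, KO_214 and KO_218). The 4 control libraries (WT_215, WT_116, WT_213 and WT_220) are labelled wild type, and the study's methods describe controls as littermates with Med23 flox/+ or Med23 flox/flox. Both groups were C57/BL6 mice given tamoxifen at 200 mg/kg by gavage on 5 days, and the labels give an age of 2 months. The Nestin promoter limits Cre to cells that use it, so cells of other origin in a culture need not have lost Med23. Values are FPKM, fragments normalized to transcript length and library size. Where a value is given for each mouse without names, controls follow the order WT_215, WT_116, WT_213, WT_220, and Med23 CKO mice the order KO_117, KO_214, KO_218.

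In hedgehog signaling, a secreted ligand binds the receptor Ptch1, which otherwise keeps the transmembrane protein Smo inactive. Free Smo acts at the primary cilium to turn the Gli transcription factors from repressors into activators. Ptch1, Hhip and Gli1 are themselves induced by the pathway, and in the adult hippocampus Shh signaling is known for maintaining neural stem cells.

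The ligand genes are related, so their coding sequences were compared. The stretch around the longest run of identical bases in Shh and Dhh, bases 475 to 564 of both coding sequences (GENCODE M21, GRCm38), reads as follows, 5′ to 3′, with that run in capitals.
Shh: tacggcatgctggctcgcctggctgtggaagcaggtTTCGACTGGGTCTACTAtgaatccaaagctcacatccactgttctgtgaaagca
Dhh: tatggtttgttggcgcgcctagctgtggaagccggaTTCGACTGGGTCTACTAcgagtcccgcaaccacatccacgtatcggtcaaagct
In this stretch 68 of 90 bases were identical (75.6%). The shared run was 17 bases long, and 0 words of 25 bases occurred in both coding sequences.

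Promoters are shown for Ptch1 and Hhip, the pair of induced genes with an entry in the RefSeq promoter table (GRCm38.p6), which held 6 of the 9 genes. Each window runs from 250 bases before to 50 bases after the annotated start, 5′ to 3′ on the gene's strand, with the GC box (GGGCGG, or CCGCCC on the other strand) in capitals. The Ptch1 window is chr13:63565686-63565985 on the reverse strand, at a start that lies inside the span of the gene.
Ptch1: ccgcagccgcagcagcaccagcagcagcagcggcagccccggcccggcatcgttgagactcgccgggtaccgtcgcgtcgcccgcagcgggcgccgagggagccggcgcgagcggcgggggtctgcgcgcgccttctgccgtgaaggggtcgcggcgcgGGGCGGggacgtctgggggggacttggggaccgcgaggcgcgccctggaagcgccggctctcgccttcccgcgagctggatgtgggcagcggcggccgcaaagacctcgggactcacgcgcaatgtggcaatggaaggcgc
The Hhip window is chr8:80057959-80058258, also on the reverse strand.
Hhip: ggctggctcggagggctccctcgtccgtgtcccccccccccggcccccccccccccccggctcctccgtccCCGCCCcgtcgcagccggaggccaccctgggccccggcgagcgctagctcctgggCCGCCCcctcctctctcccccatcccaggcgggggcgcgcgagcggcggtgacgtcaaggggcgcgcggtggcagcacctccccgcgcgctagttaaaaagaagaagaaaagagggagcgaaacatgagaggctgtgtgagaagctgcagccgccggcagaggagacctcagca
Both windows are GC-rich, at 76.3% for Ptch1 and 73.7% for Hhip, against a median of 52.67% over 32851 promoters of the same length. A GC box was found in 4 of the 6 windows (Ptch1, Hhip, Gli2 and Gli3) and in 35.7% of all promoters, counting both strands. The Gli motif GACCACCCA was searched on both strands and occurred in 0 of the 6 windows and in 0.253% of all promoters. The TATA box letters TATAAA occurred in 0 of the 6 windows and in 13.6% of all promoters. These counts say only whether the letters lie within the windows.

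Med23, the targeted gene, had 11.4, 10.3, 12.9 and 10.1 FPKM in the controls, against 9.97, 9.27 and 8.12 FPKM in the CKO mice. The difference was partial, with no overlap between the groups, though KO_117 lay only just below WT_220. This order was shown by 1.53% of tested genes. The log2 difference of Med23 was -0.26 (SE 0.18, limma unadjusted p = 0.175). FPKM covers the whole gene, including exons outside the deleted part. Over 14143 tested genes that are not members, the first principal component of log2(FPKM + 1) held 67.4% of the variance and set WT_215, WT_220 and KO_117 apart from WT_116, WT_213, KO_214 and KO_218, so each set held libraries of both genotypes. WT_215, with a score of 25.3, and WT_213, with a score of -19.6, lay nearest to the middle of this axis. Neural stem and progenitor markers summed to between 3474 and 3910 FPKM in the former set and between 1897 and 3150 FPKM in the latter. Vim or Fabp7 was the largest term of each of these sums. Gfap, of the same list, ran the other way, with 17.8 to 39.2 FPKM in the former set and 69.6 to 321 FPKM in the latter. Microglia and macrophage markers summed to between 17.5 and 35.4 FPKM in the former set and between 70.5 and 439 FPKM in the latter. Neural stem cell markers (10 of 10 measured above 0.5 FPKM on average) were present in every library. The sets were seen in the data and are not named by any label, and the members were also compared between genotypes within each set. In bulk RNA, fewer cells of a type and less RNA per cell cannot be told apart. The depth of each library is unknown, and the number of libraries limits the precision.

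Shh was lower in each Med23 CKO mouse than in any control. Shh is the secreted ligand of the pathway, and its gene lies at chr5:28456840-28467101 (RefSeq, GRCm38). Shh had 1.28, 0.692, 2.60 and 1.26 FPKM in the controls, against 0.0838, 0.316 and 0.0437 FPKM in the CKO mice. Every Med23 CKO value lay below every control value, and the highest of the Med23 CKO values, in KO_214, was still under the lowest control, WT_116. Means were 1.46 ± 0.806 FPKM (SD, n = 4) for control and 0.148 ± 0.147 FPKM (SD, n = 3) for Med23 CKO, a ratio of 9.88 of control to Med23 CKO. On the log2(FPKM + 1) scale, which compresses such low values, the difference was -1.05 (SE 0.28), and the log2 ratio of the mean FPKM was -3.30.

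The log2 difference of Shh was -1.07 among WT_215, WT_220 and KO_117, a set with a single Med23 CKO mouse, and -1.07 among WT_116, WT_213, KO_214 and KO_218. Med23 CKO values below the control values in both sets were found for 5.91% of tested genes. For Shh this order follows from the separation over all 7 libraries and is no separate result. When libraries were left out singly, the difference in log2(FPKM + 1) ran from -1.21 without WT_116 to -0.85 without WT_213. Shh was a low gene, since 49.1% of the genes in the table had a lower control mean. Of its 2847 annotated exon bases, 446 lie opposite 9530036O11Rik, which had at most 0.211 FPKM in any library. A further 361 bases lie opposite Gm26894.

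Shh was not the main hedgehog ligand transcript of these cultures. Dhh, which encodes Desert hedgehog, another ligand of Ptch1, had 19.9, 13.5, 16.7 and 58.9 FPKM in the controls, against 75.0, 11.5 and 18.2 FPKM in the CKO mice. The groups overlapped for Dhh, with a difference in log2(FPKM + 1) of 0.15 (SE 0.71, limma adjusted p = 1). Ihh, which encodes Indian hedgehog, lay between 0.0127 and 0.249 FPKM in all libraries. As a share of the summed FPKM of the 3 ligand genes, Shh made up 6.05%, 4.88%, 13.4% and 2.09% in the control mice and 0.111%, 2.67% and 0.239% in the CKO mice. These shares overlapped, because KO_214 at 2.67% was above WT_220 at 2.09%. The summed ligand FPKM was 21.2, 14.2, 19.3 and 60.4 in control and 75.2, 11.8 and 18.3 in Med23 CKO, so it followed Dhh and not Shh. Dhh shares 25.16% of its exon bases with Gm49442 on the other strand and 12.41% with Rhebl1 on its own strand. Rhebl1 ranged from 3.71 to 4.81 FPKM and did not share the spread of Dhh.

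**Figure D1:**
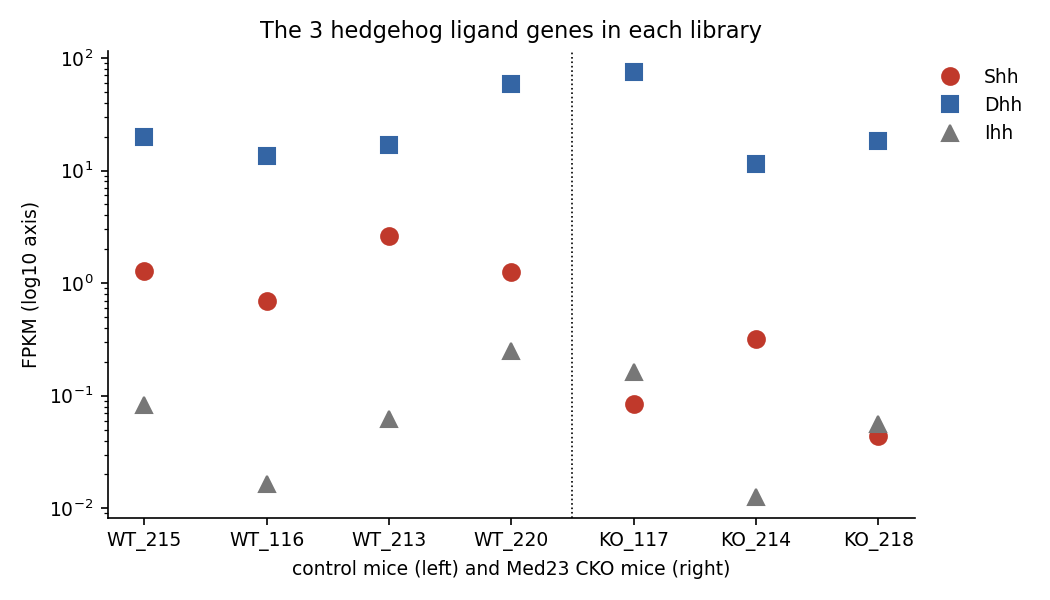
FPKM of the 3 hedgehog ligand genes on a log10 axis in each library, control mice on the left and Med23 CKO mice on the right. Shh drops from between 0.692 and 2.60 FPKM in control to between 0.0437 and 0.316 FPKM in Med23 CKO, while Dhh stays at 11.5 FPKM or more in every library.

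The genes beside Shh on chromosome 5 were read for comparison. Rbm33, 37596 bases away, had 15.0, 12.3, 13.0 and 12.7 FPKM in the controls, against 14.5, 10.7 and 11.1 FPKM in the CKO mice (log2 difference -0.13, SE 0.18). Lmbr1, the gene with the long-range limb enhancer of Shh in an intron, had 4.74, 5.50, 4.81 and 3.64 FPKM in the controls, against 4.82, 5.52 and 5.39 FPKM in the CKO mice (log2 difference 0.15, SE 0.19). Cnpy1 was at 0.0256 FPKM or less in every library. Of the 6 neighbors listed, 4 were tested, and 0 passed an unadjusted p under 0.05 in limma in either direction.

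Ptch1 (chr13:63508328-63573460), the receptor, had the highest mean FPKM of the members in both groups, though Smo exceeded it in WT_220 and KO_117. It had 23.0, 16.4, 16.2 and 22.4 FPKM in the controls, against 23.0, 14.4 and 12.9 FPKM in the CKO mice. The groups overlapped because KO_117 was as high as the highest control, and the other pair of Med23 CKO libraries lay below all controls. Means were 19.5 ± 3.72 FPKM (SD, n = 4) for control and 16.8 ± 5.47 FPKM (SD, n = 3) for Med23 CKO, with a log2 difference of -0.23 (SE 0.25). The difference ran from -0.47 without KO_117, where the groups no longer overlapped, to -0.07 without KO_218. Within the sets of libraries it was 0.02 among WT_215, WT_220 and KO_117, and -0.24 among the other 4.

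Boc and Cdon encode cell-surface co-receptors that bind hedgehog ligands together with Ptch1. Boc (chr16:44485045-44558870) had 2.59, 1.97, 3.10 and 2.47 FPKM in the controls, against 2.76, 4.63 and 3.53 FPKM in the CKO mice. All Med23 CKO values but that of KO_117 were above all controls, and KO_117 was exceeded only by WT_213. Means were 2.54 ± 0.466 FPKM (SD, n = 4) for control and 3.64 ± 0.942 FPKM (SD, n = 3) for Med23 CKO, with a log2 difference of 0.38 (SE 0.22) and a range of 0.23 to 0.52 when single libraries were left out. Within each set of libraries the Med23 CKO values of Boc were above the control values, by 0.09 and 0.53 on the log2 scale, an order that 2.52% of tested genes showed in both sets.

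The control and Med23 CKO ranges of Cdon (chr9:35421528-35507652) overlapped almost fully. It had 15.3, 4.31, 5.63 and 7.79 FPKM in the controls, against 14.0, 2.78 and 8.89 FPKM in the CKO mice, so the lowest and the second highest values were both from Med23 CKO mice. Means were 8.25 ± 4.89 FPKM (SD, n = 4) for control and 8.56 ± 5.63 FPKM (SD, n = 3) for Med23 CKO, with a log2 difference of -0.03 (SE 0.55), which ran from -0.46 without KO_117 to 0.53 without KO_214 and was 0.059 with array weights. Within the sets of libraries the difference was 0.33 and 0.04. The ratio of Cdon to Boc FPKM was 5.88, 2.19, 1.81 and 3.15 in control and 5.08, 0.600 and 2.52 in Med23 CKO. KO_214 was the only library with more Boc than Cdon.

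Smo (chr6:29735497-29761366), the signal transducer that Ptch1 holds in check, had 15.3, 8.99, 10.3 and 23.0 FPKM in the controls, against 24.5, 12.7 and 7.87 FPKM in the CKO mice. Both the highest and the lowest of the 7 values came from Med23 CKO mice. Means were 14.4 ± 6.36 FPKM (SD, n = 4) for control and 15.0 ± 8.52 FPKM (SD, n = 3) for Med23 CKO, with a log2 difference of 0.01 (SE 0.43) that turned from -0.39 without KO_117 to 0.37 without KO_218 and was -0.41 with array weights. The ratio of Smo to Ptch1 FPKM was 0.664, 0.550, 0.638 and 1.03 in control and 1.06, 0.884 and 0.610 in Med23 CKO, again overlapping.

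The Gli transcripts were scarce beside their upstream partners. Gli1 (chr10:127329882-127341579) is an activator and a commonly used readout of the pathway, since its transcription depends on hedgehog input. Gli1 had 0.144, 0.0339, 0.203 and 0.0610 FPKM in the controls, was listed at 0 in KO_117, and had 0.377 and 0.0783 FPKM in KO_214 and KO_218. The groups overlapped, with the lowest and the highest values both in Med23 CKO mice. At this level, with 33.7% of genes in the table having a lower control mean and no depth known, no difference in Gli1 was detectable. A stretch of 62 of its 4995 exon bases is shared with Arhgap9 on the other strand. A further 265 bases lie opposite Gm47200, for which no value was listed. Arhgap9 was, like Gli1, highest in KO_214, at 8.61 FPKM against 0.288 to 1.37 FPKM elsewhere. The library kit named in the study does not mark the strand, so reads from such shared bases cannot be assigned to either gene.

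Gli2 (chr1:118834061-119054405), the main activator downstream of Smo, had 0.195, 0.480, 0.340 and 0.278 FPKM in the controls, against 1.30, 0.843 and 0.405 FPKM in the CKO mice. KO_117 and KO_214 were above every control, and KO_218 lay under WT_116. Means were 0.324 ± 0.120 FPKM (SD, n = 4) for control and 0.850 ± 0.449 FPKM (SD, n = 3) for Med23 CKO, and the log2 difference was 0.46 (SE 0.23). Leaving out single libraries gave 0.29 (without KO_117, where the mean of Gli2 fell under the level for the fit) to 0.64 (without KO_218). The difference was 0.21 with array weights in limma and 1.09 with a pseudocount of 0.1. The Gli2 groups no longer overlapped without KO_218, as for 3.82% of tested genes on the higher side, or without WT_116, as for 1.498%. Gli2 entered the fit only through the Med23 CKO mice, so nothing is read from these shares. Within the sets of libraries the log2 difference was 0.90 among WT_215, WT_220 and KO_117, and 0.19 among the other 4, where the groups overlapped.

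Gli3 (chr13:15463723-15730026), which acts mainly as a repressor, had 0.408, 0.995, 1.32 and 0.172 FPKM in the controls, against 0.505, 1.92 and 1.86 FPKM in the CKO mice. KO_214 and KO_218 were above every control and KO_117 lay among them. Means were 0.724 ± 0.526 FPKM (SD, n = 4) for control and 1.43 ± 0.802 FPKM (SD, n = 3) for Med23 CKO, with a log2 difference of 0.48 (SE 0.35) and a range of 0.32 to 0.80 with each library left out. With a pseudocount of 0.1 it was 0.98. As with Boc, the Med23 CKO values of Gli3 were above the control values in each set of libraries, by 0.23 and 0.43 on the log2 scale.

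Summed over Gli1, Gli2 and Gli3, the level was 0.748, 1.51, 1.86 and 0.511 FPKM in the controls, against 1.81, 3.14 and 2.34 FPKM in the CKO mice. The groups missed separation by a narrow margin, as WT_213 at 1.86 was above KO_117 at 1.81. The make-up of the sum differed between mice, since the ratio of Gli3 to Gli2 was 2.09, 2.07, 3.87 and 0.618 in control and 0.388, 2.28 and 4.60 in Med23 CKO. Gli2 was the larger in WT_220 and KO_117, and Gli3 in the other 5 libraries.

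Hhip (chr8:79965850-80058060), the membrane-bound decoy that binds hedgehog ligands and dampens the pathway, had 2.28, 5.16, 2.38 and 1.16 FPKM in the controls, against 0.454, 3.11 and 2.79 FPKM in the CKO mice. The Med23 CKO values of KO_214 and KO_218 lay within the control range, and that of KO_117 below it. Means were 2.75 ± 1.70 FPKM (SD, n = 4) for control and 2.12 ± 1.45 FPKM (SD, n = 3) for Med23 CKO. The log2 difference of -0.30 (SE 0.48) became 0.18 without KO_117 and 0.015 with array weights. It was -0.87 among WT_215, WT_220 and KO_117, and -0.21 among the other 4, where the groups overlapped.

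**Figure D2:**
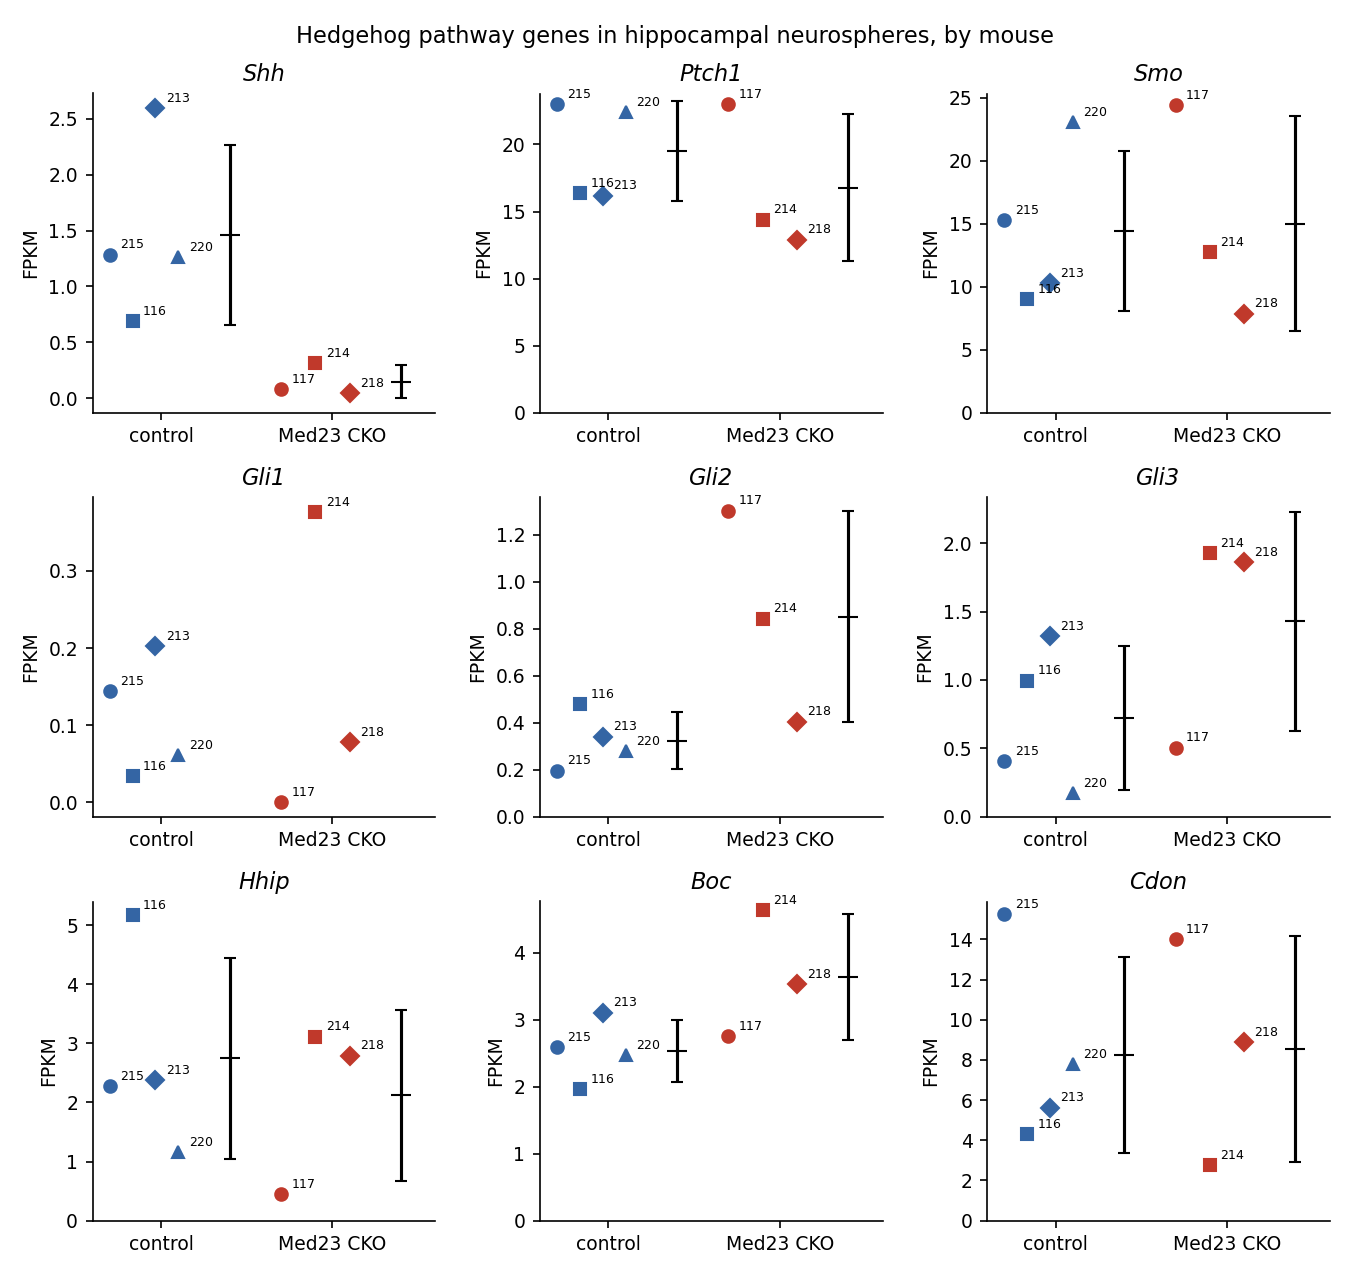
FPKM of each of the 9 genes in the 4 control and 3 Med23 CKO libraries, 1 panel per gene with its own linear axis that includes 0, where points are mice labelled by number and the bars show the mean and SD of each group (none for Gli1, with a library at 0). Only the Shh panel has no overlap between control (0.692 to 2.60) and Med23 CKO (0.0437 to 0.316).

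Over the members, all 3 Med23 CKO values lay below all 4 control values for 1 of 9 genes, Shh, an order that 1.53% of the 14151 tested genes showed. They lay above all control values for 0 of 9, against 0.784% of tested genes. As the members were selected on this contrast, and Shh entered the fit only through the controls, nothing is read from these counts. Of the 8 members in the fit, 4 had a higher mean log2(FPKM + 1) in Med23 CKO and 4 a lower one, and their median difference was -0.01, against -0.03 over all tested genes. Without KO_117, the groups did not overlap for Shh and Ptch1 on the lower side and for Gli3 and Boc on the higher side, where 12.2% of tested genes were separated on the lower and 5.10% on the higher side.

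The order of the members by mean FPKM in control was Ptch1, Smo, Cdon, Hhip, Boc, Shh, Gli3, Gli2 and Gli1. The ranges of neighbors in this order overlapped in each case over the 4 control mice, although Cdon was above Hhip in 3 of 4 mice and Boc above Shh in 4 of 4. In Med23 CKO the order was Ptch1, Smo, Cdon, Boc, Hhip, Gli3, Gli2, Gli1 and Shh. Shh thus stood sixth in control and last in Med23 CKO, and of the neighbors in that order only Gli2 and Gli1 had ranges that did not overlap. The last 2 places lay close, with a mean of 0.152 FPKM for Gli1, higher in 2 of 3 mice, and 0.148 FPKM for Shh.

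Much of the spread of the receptor genes followed the sets of libraries. Ptch1 was between 22.4 and 23.0 FPKM in WT_215, WT_220 and KO_117, and between 12.9 and 16.4 FPKM in WT_116, WT_213, KO_214 and KO_218. Smo was between 15.3 and 24.5 FPKM in the same 3 mice and between 7.87 and 12.7 FPKM in the other 4. Gli3 ran the other way, between 0.172 and 0.505 FPKM in those 3 mice and between 0.995 and 1.92 FPKM in the other 4. Hhip did so as well, between 0.454 and 2.28 FPKM against 2.38 to 5.16 FPKM.

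Ptch1 and Hhip, both known as induced by hedgehog signaling, thus had opposite orders over the libraries. This pattern is shared by many genes: 26.1% of all tested genes had their 3 highest values in WT_215, WT_220 and KO_117, and 23.6% their 3 lowest. Shh, Gli1, Gli2, Boc and Cdon did not divide this way. The ratio of Ptch1 to Hhip FPKM was 10.1, 3.17, 6.80 and 19.3 in control and 50.7, 4.63 and 4.62 in Med23 CKO, so KO_117 and WT_220 stood at the top. The part of the other cell types in these patterns was not tested.

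**Figure D3:**
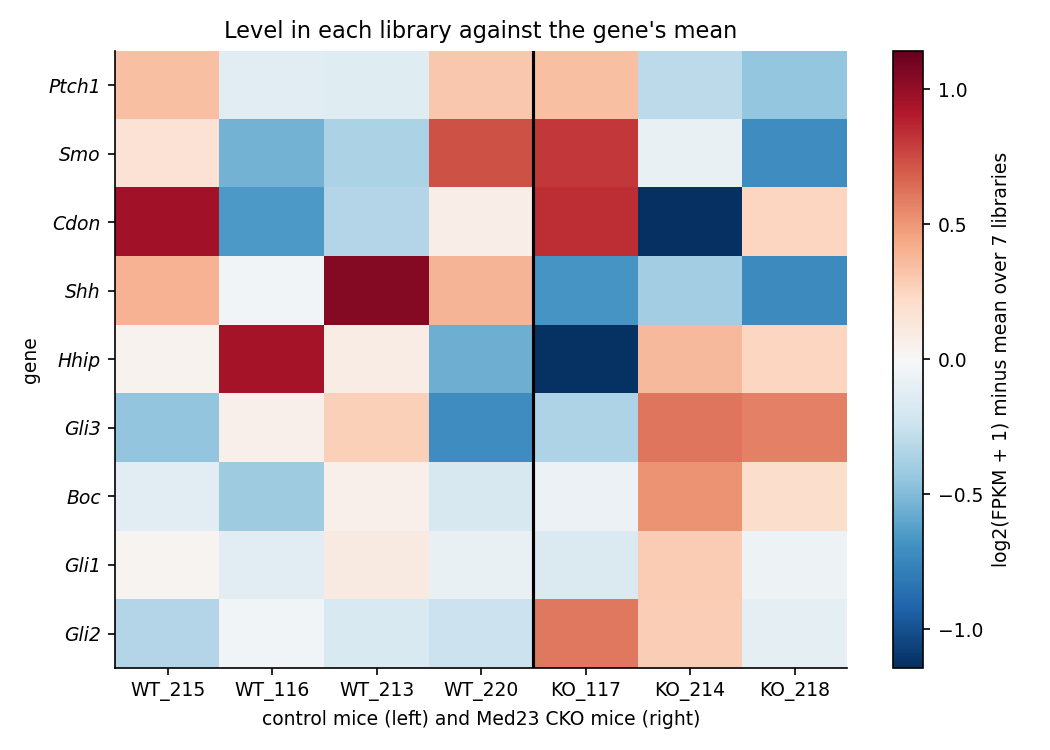
Level of each of the 9 genes (rows) in each library (columns), as log2(FPKM + 1) minus the gene's mean over the 7 libraries, control mice on the left and Med23 CKO mice on the right. Ptch1 and Smo are high in WT_215, WT_220 and KO_117, where Gli3 and Hhip are lower than in the other 4 libraries, and Shh is low in all 3 Med23 CKO mice.

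Beyond the members, 72 further pathway genes were listed by role, and 62 of them were tested. At an unadjusted p under 0.05 in limma, 1 of the 62 was higher in Med23 CKO and 0 were lower, where 0.502% of all tested genes were higher and 0.996% lower. None of the 62 had an adjusted p under 0.05, and neither had any of the 14151 tested genes in limma, among which the unadjusted threshold gave 71 on the higher and 141 on the lower side. Their median log2 difference was -0.05.

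The gene that passed was Tulp3, which carries receptors such as Gpr161 into the primary cilium and restrains hedgehog signaling. Tulp3 had 16.6, 19.4, 20.5 and 17.1 FPKM in the controls, against 26.3, 26.6 and 24.1 FPKM in the CKO mice, with every Med23 CKO value above every control value. Means were 18.4 ± 1.88 FPKM (SD, n = 4) for control and 25.7 ± 1.38 FPKM (SD, n = 3) for Med23 CKO, a log2 difference of 0.46 (SE 0.16, limma adjusted p = 1). Leaving out single libraries gave differences of 0.42 to 0.52, and its unadjusted p was not under 0.05 without KO_214 or without WT_215.

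Among ligand release and reception genes, 9 were tested and 0 passed in either direction. Disp1, which releases the lipid-modified ligand from cells, had a log2 difference of 0.07 (SE 0.24). Gas1, another co-receptor, had a log2 difference of 0.47 (SE 0.71), which was -0.25 without KO_117.

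Of the 21 genes of the steps between Smo and Gli, Tulp3 was the 1 that passed. Sufu, which holds Gli proteins in the cytoplasm, had a log2 difference of -0.12 (SE 0.33). Kif7, the ciliary kinesin that organizes Gli at the cilium tip, had -0.51 (SE 0.42), and Gpr161, a ciliary receptor that keeps Gli repressors formed, had 0.02 (SE 0.48). Of 20 further cilium genes, 0 passed, with a median log2 difference of -0.05.

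Of 18 genes known to respond to Gli, 12 were tested, and 0 passed an unadjusted p under 0.05 in limma. Of the 12, 8 were lower and 4 higher in mean, where 7955 of all 14151 tested genes were lower and 6196 higher. The median log2 difference of the 12 was -0.41, against -0.03 over all tested genes. The neural stem and oligodendrocyte marker lists had medians of -0.34 and -0.73. The cyclin genes Ccnd1 and Ccnd2 had log2 differences of -0.57 (SE 0.25, limma adjusted p = 1) and -0.40 (SE 0.59), and Mycn, a growth regulator, had -0.57 (SE 0.57). All 3 had their highest values in WT_215, WT_220 and KO_117, as did Ptch1 and Smo. Without KO_117, 4 genes among all listed pathway genes were lower at an unadjusted p under 0.05 in limma. They were Ccnd1, Mycn and Olig2 and, from the steps between Smo and Gli, Kif7. The same held for 2.88% of all genes tested without that library. The Gli-responsive genes are also used by other pathways, and Olig2 is itself a marker of the oligodendrocyte lineage.

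**Figure D4:**
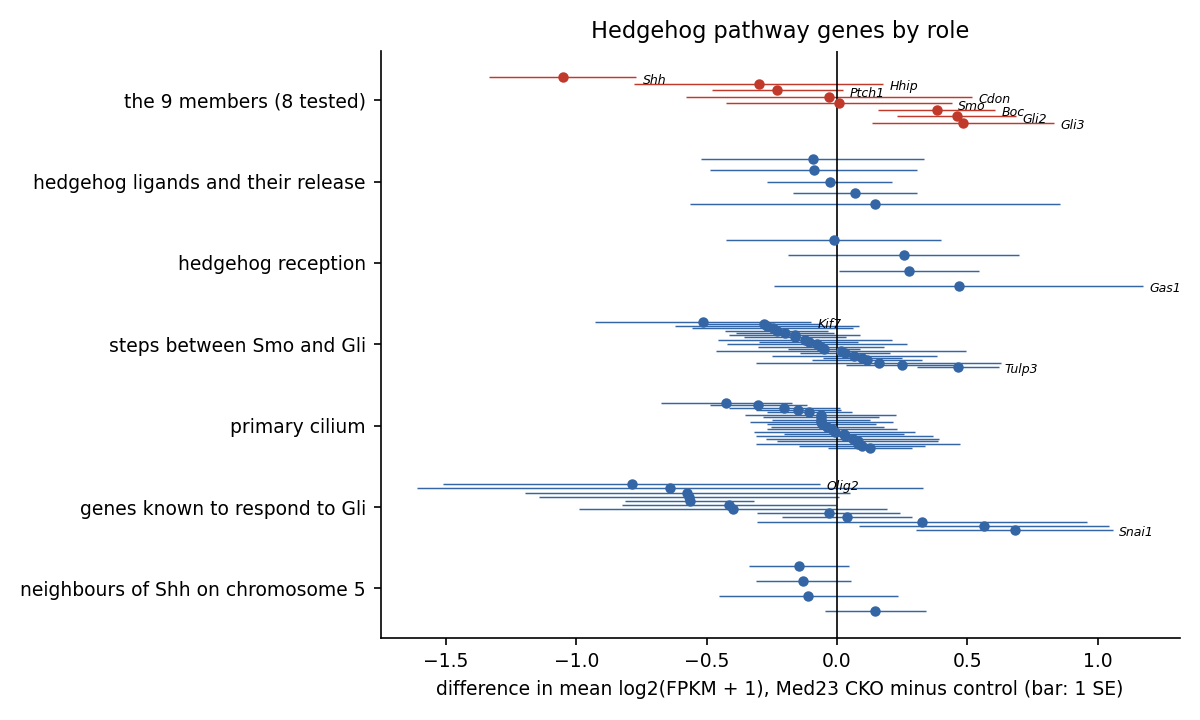
Difference in mean log2(FPKM + 1), Med23 CKO minus control, for the tested hedgehog pathway genes grouped by role, with bars of 1 standard error. Shh lies at -1.05, the other members lie between -0.30 and 0.48, and Tulp3 at 0.46 has the 1 unadjusted limma p under 0.05 among the genes that are not members.

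Markers of other cell types were set beside the Shh and Gli1 values. In the nervous system Shh is also made by some neurons. Neuron markers summed to between 31.0 and 65.8 FPKM in control and between 40.7 and 46.2 FPKM in Med23 CKO, and 0 of 6 tested passed an unadjusted p under 0.05. Markers of GABAergic neurons summed to between 22.8 and 76.6 FPKM in control and between 9.26 and 71.0 FPKM in Med23 CKO, and Npy was the largest term of these sums in 5 of the 7 libraries. Of 10 markers 5 were tested, each with a lower mean in the CKO mice and with a median log2 difference of -0.72, and 1 passed an unadjusted p under 0.05, Gad1. Every CKO value of Dlx2, a transcription factor of these neurons, was also below every control, an order that 1.53% of tested genes showed. Dlx2 entered the fit only through the controls (mean 1.15 FPKM, against 0.171 FPKM in the CKO mice), so nothing is read from this order. Dlx2 had 0.0889 to 0.241 FPKM in the CKO mice, 3.12 FPKM in WT_215 and 0.366 to 0.581 FPKM in the other controls. The groups overlapped for Gad2, Sst and Npy. Of the untested markers, Dlx6 and Lhx6 had higher means in the CKO mice, and Slc32a1, Dlx1 and Dlx5 lower means. Gad1, the enzyme that makes GABA, had 11.6, 8.92, 12.2 and 11.1 FPKM in the controls, against 5.24, 2.21 and 4.42 FPKM in the CKO mice, where Shh was also low. Its log2 difference passed the unadjusted but not the adjusted threshold (log2 difference -1.32, SE 0.27, limma adjusted p = 1). The defining markers Slc32a1, Dlx5 and Dlx6 were listed at 0 in at least 1 library. The part of these cells in the Shh values was not tested.

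Microglia and macrophage markers summed to 439 FPKM in KO_214, the library with the most Gli1, and to between 17.5 and 93.2 FPKM in the other libraries. Mural cell and fibroblast markers summed to 301 FPKM in KO_214 and to at most 81.2 FPKM elsewhere. Each of the 9 tested microglia markers had a higher mean in the CKO mice, as did 6196 of all 14151 tested genes. Of the 9, 0 passed an unadjusted p under 0.05 in limma, and all but P2ry12 had their highest value in KO_214. Cd68, for example, had 259 FPKM in KO_214, 9.49 in KO_117 and 42.1 in KO_218, against 9.70 to 50.3 FPKM in the controls. The part of these cell types in the Gli1 values was not tested.

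The genes whose log2(FPKM + 1) most resembled that of Shh over the 7 libraries, among 14143 tested genes, were Oscp1 (Pearson r = 0.976), Fam184a (0.972), Thbs3 (0.961), Ccdc96 (0.959) and 0610040B10Rik (0.953). The Shh order of mice was kept exactly by Fam184a, with 3.49, 3.04, 3.75 and 3.45 FPKM in the controls, against 2.59, 2.78 and 2.35 FPKM in the CKO mice. Its span was much narrower than that of Shh, whose highest value was 59.5 times its lowest.

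The genes most like Gli1 were Myo7a (Pearson r = 0.990), Nfkbiz (0.988), Il1rl2 (0.984), Rab20 (0.983) and Myl9 (0.980), over the same libraries and genes. Each of them was highest in KO_214, and Myl9, a myosin light chain of contractile cells, had 55.3 FPKM there against 1.95 to 12.9 FPKM in the other libraries. These likenesses rest on 7 libraries of both groups and are descriptions. With a library left out, between 1 and 3 of the 5 genes stayed among the 5 most like Shh, and likewise for Gli1. By Spearman's rho, 3 of the 5 were shared for Shh and 0 of the 5 for Gli1, where 7 genes tied at a rho of 1.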

How the data were processed

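RNA of hippocampal neurospheres from 4 control and 3 Med23 CKO mice was compared. After adapter trimming, the authors mapped reads to mm10 using TopHat, and the FPKM they deposited per gene and library come from Cuffdiff. FastQC is also named. The annotation they used is not given in the sources used here. The authors' comparison columns (fold changes, test statistics, p and q values) were not used, and 0 columns lacked a sample. Libraries were matched to mice by title.

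FPKM were analysed as log2(FPKM + 1). The 14151 genes with a mean of at least 0.5 FPKM were fitted with limma 3.58.1 (R 4.3.3, eBayes with trend, two-sided, Benjamini-Hochberg adjustment). The fit was run on simulated data with independent noise for each gene, which lack the main axis of variation of these libraries. Tables were made in Python 3.11.15. Differences are Med23 CKO minus control. Depth is unknown, so no counting interval is given. Gene positions and promoters are from RefSeq on GRCm38, and exons and coding sequences from GENCODE M21.

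Members and gene lists were chosen with earlier results of these data known. Named genes are the members, Med23, listed pathway genes at an unadjusted p under 0.05, 12 pathway genes or neighbors set to be named whatever their values (1 of them is not reported here), the 5 genes most correlated with Shh and with Gli1, and markers set beside a member. Dhh, Ihh, Olig2, Arhgap9, Rhebl1 and 9530036O11Rik were added after values were seen. Alternatives were a pseudocount of 0.1, no filter, quantile normalization, median centring, array weights, Spearman correlation for likeness and each library left out. The log2 ratio of mean FPKM and the sets of libraries were added after the data were seen.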

Additional observations from a re-analysis of the deposited data

Results flagged for a closer look

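Among the 36 named or listed genes checked in the 4 control mice, the value of 1 mouse stood far from the other 3 in 2 genes. Chance gives such a gap in about 1 in 20 groups, so 2 of 36 genes is near the share that chance gives. 0610040B10Rik, a gene whose order over libraries was like that of Shh, had 6.16 FPKM in WT_213, against 4.32 to 4.44 FPKM in the other control mice. WT_213 also had the highest Shh value, and the gene was named for its likeness to Shh, so this match is no separate result. Cnpy1, a neighbor of Shh, had 0.0256 FPKM in WT_215 and was listed at 0 in the other control mice, where any value above 0 would have been flagged.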

How the results depend on the processing

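Leaving out single libraries, genes higher in the CKO mice at an unadjusted p under 0.05 numbered from 44 (without WT_215) to 362 (without KO_117), those lower from 71 (without KO_218) to 410 (without KO_117), and those at an adjusted p under 0.05 from 0 to 1 (without KO_214 or KO_218). Array weights gave 193 higher and 887 lower, and no filter 140 higher. Members with separated groups numbered 1 to 2 below and 0 to 2 above. There were 2 of each without KO_117, and 1 above without KO_218, WT_116 or WT_213. Among all tested genes, 12.2% were separated below and 5.10% above without KO_117. The share above was 3.82% without KO_218, 1.498% without WT_116 and 1.67% without WT_213. As the members were selected on this contrast, nothing is read from these shares. Other pathway genes at an unadjusted p under 0.05 numbered 0 to 1 higher (0 without KO_214 or WT_215) and 0 to 4 lower (4 without KO_117, 1 without WT_116). The lower ones numbered 5 with array weights, 1 with no filter (Fgf15) and 1 with quantile normalization (Ccnd1). The direction turned with array weights for the members Smo (-0.41), Hhip (0.015) and Cdon (0.059) and for Gas1 (-0.068) and Disp1 (-0.18), and for Gpr161 with a pseudocount of 0.1 (-0.031) and quantile normalization (-0.012). With a library left out, log2 differences ranged from -0.25 to 0.83 for Gas1, -0.11 to 0.23 for Disp1, -0.45 to 0.50 for Gpr161, -0.44 to 0.13 for Sufu and -0.98 to 0.081 for Ccnd2. With a pseudocount of 0.1, which by construction widens differences of low genes, the difference was -2.67 for Shh, 1.09 for Gli2 and 0.98 for Gli3. The log2 ratio of mean FPKM was -3.30, 1.39 and 0.98 for the same genes, and 0.054 for Cdon, of the other sign than its difference. The cause of the other changes was not tested. No paired analysis was made, because the labels give the number of each mouse but not its litter. With no depth known, differences in Gli1 and other genes near 0 could not be resolved.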

Other observations

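Other genes of the hedgehog lists had separated groups and were noticed after their values were seen. Snai1, a transcription factor that represses epithelial genes and is known to respond to Gli, had 0.893, 0.850, 0.875 and 0.464 FPKM in the controls (WT_215, WT_116, WT_213, WT_220), against 1.15, 4.45 and 0.923 FPKM in the CKO mice (KO_117, KO_214, KO_218). Every Med23 CKO value was above every control value, by the narrowest margin in KO_218 (log2 difference 0.68, SE 0.38, limma adjusted p = 1). This order was shown by 0.784% of tested genes. Fgf15, a growth factor gene of the developing brain that also responds to hedgehog input, had 0.242, 0.193, 0.201 and 0.279 FPKM in control, was listed at 0 in KO_117 and KO_218, and had 0.0684 FPKM in KO_214. Groups separated on the lower side were found for 1.53% of tested genes, but Fgf15 was too low for the fit.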
